A study of Mus musculus with 12 samples.

Results

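The genotype difference in the response to hemorrhage was measured as a difference of differences. For each gene, the change from Sham-Fabp4fl_fl to ICH-Fabp4fl_fl was subtracted from the change from Sham-Fabp4CKO to ICH-Fabp4CKO. All 12 of the 12 libraries entered this contrast, and 15089 of 21956 listed genes had enough reads to be tested. The 4 groups held 3 mice each, and each library came from a different mouse. In the ICH-Fabp4fl_fl and ICH-Fabp4CKO groups, collagenase had been injected into the right striatum to cause an intracerebral hemorrhage (ICH), and the tissue bordering the hematoma was taken 48 h later. The Sham-Fabp4fl_fl and Sham-Fabp4CKO mice underwent the operation without the enzyme. Every mouse carried floxed Fabp4. Fabp4CKO mice also carried Tmem119-CreERT2, a tamoxifen-dependent Cre recombinase expressed from a microglial gene, and had a 7-day course of tamoxifen (150 mg/kg daily) that ended 14 days ahead of surgery. The sources used here do not say whether Fabp4fl_fl mice received tamoxifen, so the drug, the Cre allele and the loss of Fabp4 cannot be told apart. Ages of these mice are not given there either.

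FABP4 is a small cytoplasmic carrier of fatty acids, best known from adipocytes and macrophages. Microglia, the resident macrophages of the brain, respond to blood in the tissue by changing shape, taking up debris and lipid, and releasing cytokines. Brain capillaries respond as well, since the endothelium seals the blood-brain barrier through tight junctions and selective transporters, a state that Wnt and beta-catenin signaling maintains. The libraries were made from whole tissue, so each value sums over all of these cells.

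Fabp4 itself had few reads. Sham-Fabp4fl_fl mice 1, 2 and 3 had 2, 1 and 2 reads, and the 3 Sham-Fabp4CKO mice had 0, which allows up to 3 reads over the group. After ICH there were 46, 63 and 24 reads in the Fabp4fl_fl mice and 5, 3 and 10 in the Fabp4CKO mice, so the ICH groups did not overlap. The level after ICH was lower in Fabp4CKO by 3.01 on the log2 scale (adjusted p = 0.0418), a difference between genotypes and not of responses. The difference of differences of Fabp4 did not pass (adjusted p = 0.734), and with Sham-Fabp4CKO at 0 its size cannot be read.

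The library totals ranged from 15650813 to 22406216 reads. The share of reads on mitochondria-encoded genes was 16.3% in ICH-Fabp4fl_fl mouse 1 and 7.90% to 11.9% in the other 11 libraries. ICH-Fabp4CKO mouse 1 had 1 read on 4 Y-linked genes, and the other 11 libraries had at least 1302. Markers of striatal projection neurons, the principal cell of the target region, summed to 2886 and 3261 CPM (read counts scaled to library size) in Sham-Fabp4fl_fl mice 1 and 2, and to 5963 to 10106 in the remaining sham mice. These Sham-Fabp4fl_fl mice also had the highest sums of cholinergic and thalamic markers, 1245 and 892 CPM, against 290 to 476 CPM in the remaining sham mice. The members of that list differed. Among the sham mice, the thalamic gene Prkcd was highest in these mice, and the basal forebrain factors Gbx1 and Lhx8 were lowest in them. For the gene lists described, counts of 3 or more that moved by more than 1.5 times when a library was left out are given beside the result. Leaving out Sham-Fabp4fl_fl mice 1 and 2 together leaves 1 mouse, mouse 3, in that group, assumed to vary like the mice of the other groups, so such values take that mouse as the baseline and are no test of stability.

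A set of 3 genes differed in response between the genotypes at an adjusted p below 0.05, which was 0.0199% of the genes tested. The smallest adjusted p was 0.0278, and 1500 genes had an unadjusted p below 0.05. DESeq2 called 266 genes on the same counts, all 3 among them, and limma-voom called 1. Leaving out ICH-Fabp4CKO mouse 2 gave 371 calls, and leaving out other single libraries gave from 0 to 24. For description, a gene is called higher or lower below when its unadjusted p was under 0.05 and its difference of differences was at least 1.5-fold. By this rule 695 genes (4.61%) had a higher value in Fabp4CKO and 496 (3.29%) a lower one, where higher means that the ICH minus sham change was more positive in Fabp4CKO. The median over all genes was 0.03 on the log2 scale. An unadjusted rule also admits genes that do not differ, so a gene list is read against these background shares and against 7.89% for both directions together.

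Each called gene was then placed by the group that carried its difference. The sham share is the part of the difference of differences that comes from the genotype difference between the sham groups. Genes with a share under 1/3 are termed ICH-carried, those over 2/3 sham-carried, and the rest shared. Of the 695 genes called higher, 397 (57.1%) were ICH-carried, 178 (25.6%) shared and 120 (17.3%) sham-carried. Among the 496 called lower, 374 (75.4%) were ICH-carried, 115 (23.2%) shared and 7 (1.41%) sham-carried. With a single limit of 1/2, 233 of the 1191 called genes fell on the sham side. The called genes also differed in the path they took. Of those called higher, 277 had a positive fitted change after ICH in each genotype, 170 a negative one in each, and 248 were negative in Fabp4fl_fl and positive in Fabp4CKO. Of those called lower, 208 were positive in each, 54 negative in each, and 234 positive in Fabp4fl_fl and negative in Fabp4CKO.

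**Figure D1:**
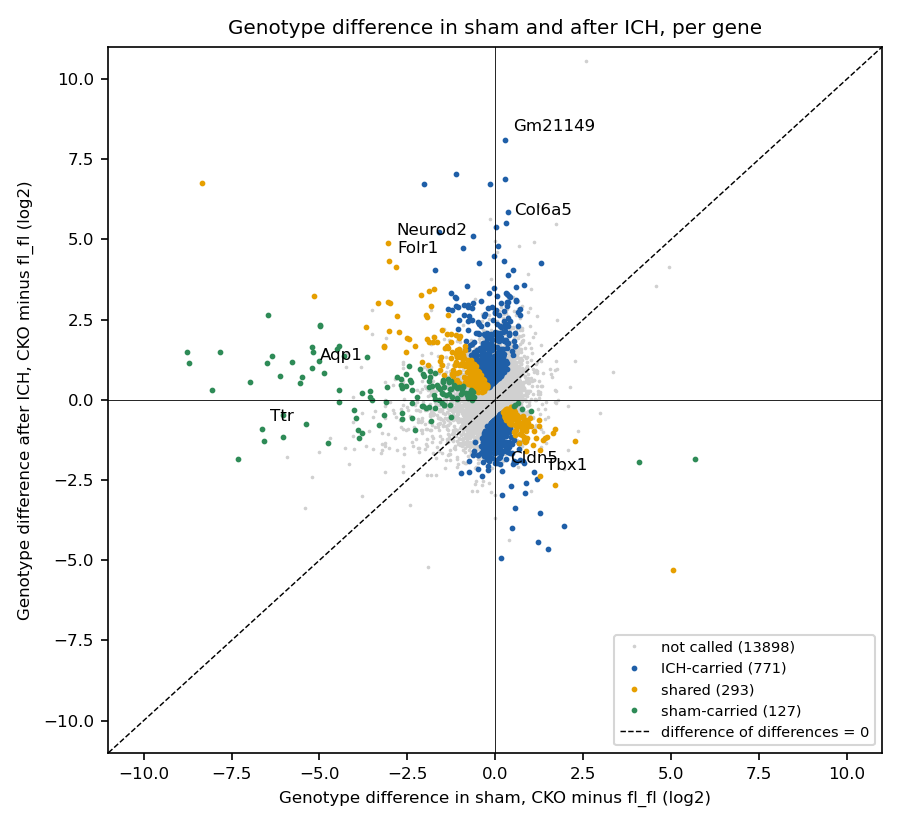
Genotype difference (Fabp4CKO minus Fabp4fl_fl, log2) in the sham groups (x axis) and in the ICH groups (y axis) for 15089 genes, with 3 mice per group. The dashed line marks equal differences, so distance from it is the difference of differences. The 771 ICH-carried genes lie along the vertical axis, the 127 sham-carried genes spread along the horizontal axis mainly to the left, and the 293 shared genes lie between.

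The simple contrasts behind these classes were unequal in size. Between the ICH groups, 154 genes (1.02%) were higher and 208 (1.38%) lower in Fabp4CKO at an adjusted p below 0.05. In the sham groups 13 genes (0.0862%) were lower and 0 (0%) higher by edgeR. The same sham contrast had 125 genes higher and 513 lower at an unadjusted p below 0.05, and DESeq2 called 1 higher and limma-voom 0. The count of 362 between the ICH groups rested on single libraries, from 23 without ICH-Fabp4fl_fl mouse 2 to 1981 without ICH-Fabp4CKO mouse 2, and was 0 when the 6 ICH libraries were fitted alone (1777 genes with an unadjusted p below 0.05). At an adjusted p below 0.05, ICH itself moved far more genes. There were 4370 (29.0%) higher and 3020 (20.0%) lower in Fabp4fl_fl, and 4171 (27.6%) higher and 2558 (17.0%) lower in Fabp4CKO. The responses and the genotype contrasts share groups with the difference of differences and are its parts, not separate evidence for it.

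The 3 genes past the adjusted threshold were Ttr, Folr1 and Tbx1. Ttr encodes transthyretin, a carrier of thyroid hormone and retinol that the choroid plexus secretes into the cerebrospinal fluid. Its level was 783, 1484 and 2929 CPM in Sham-Fabp4fl_fl mice 1, 2 and 3, and 19.0, 19.0 and 14.2 CPM in the Sham-Fabp4CKO mice. After ICH it was 22.7, 17.0 and 13.02 CPM in Fabp4fl_fl and 12.2, 6.50 and 9.40 CPM in Fabp4CKO. Ttr was thus high in the Sham-Fabp4fl_fl mice and low in the other 9, and the sham groups did not overlap. The fall after ICH was 6.63 on the log2 scale in Fabp4fl_fl (adjusted p = 0.000107), while the change in Fabp4CKO was -0.90 (adjusted p = 0.103). The difference of differences was 5.73 (SE 0.63, adjusted p = 0.0278). In sham the genotype difference was larger, at -6.64 (adjusted p = 0.00112). Ttr was also lower in Fabp4CKO after ICH, without overlap, which offset part of the sham difference.

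Folr1, a folate receptor that carries folate across the choroid plexus, had 5.16, 9.42 and 19.0 CPM in Sham-Fabp4fl_fl and 1.34, 1.299 and 1.52 CPM in Sham-Fabp4CKO. The ICH-Fabp4fl_fl mice held 2 reads in all, and the ICH-Fabp4CKO mice 50, at 0.776, 1.12 and 0.930 CPM. Between the ICH groups this is a ratio of 23.4 (95% exact interval 6.14 to 198, counting error only). Folr1 differed between the genotypes on each side, lower in Fabp4CKO among sham mice (-3.01, adjusted p = 0.0488) and higher among ICH mice (adjusted p = 0.0299). Its difference of differences of 7.33 (adjusted p = 0.0278) depends on those 2 reads for its size.

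Tbx1, a T-box transcription factor known for its role in pharyngeal arch and vessel development, went the opposite way. It had 11.1, 9.60 and 5.58 CPM in the ICH-Fabp4fl_fl mice and 1.68, 1.39 and 1.70 CPM in the ICH-Fabp4CKO mice. In the sham groups it had 0.771, 0.931 and 1.03 CPM in Fabp4fl_fl and 1.94, 2.73 and 1.61 CPM in Fabp4CKO. Neither pair of groups overlapped, and the genotypes were ordered oppositely in sham (adjusted p = 0.671) and after ICH (adjusted p = 0.00845). Tbx1 rose by 3.26 on the log2 scale in Fabp4fl_fl (adjusted p = 0.000175) and changed by -0.40 in Fabp4CKO (adjusted p = 0.298), with a difference of differences of -3.66 (SE 0.45, adjusted p = 0.0278). The fitted sizes of these 3 genes held when single libraries were left out, but the adjusted p then reached 0.15, and passed 0.05 in 7 of 12 refits for Ttr, 7 for Folr1 and 9 for Tbx1. With mouse 3 as the only Sham-Fabp4fl_fl mouse, which had the highest Ttr and Folr1, the adjusted p was 0.00295 for Ttr, 0.00638 for Folr1 and 0.374 for Tbx1.

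Sham-carried genes were led by markers of the choroid plexus. The choroid plexus is an epithelium inside the ventricles that makes cerebrospinal fluid and does not belong to the striatum. All 12 listed markers were tested and 10 were called higher, against 4.61% of all genes, with a median difference of differences of 4.02. Of these 10, 8 were sham-carried and 2 shared. Ttr and Folr1 are among the 10 and are the only 2 of the list past the adjusted threshold. The list median was -2.73 for the genotype difference in sham and -0.07 after ICH. At an adjusted p below 0.05, all 12 markers fell after ICH in Fabp4fl_fl, and 4 fell and 1 rose in Fabp4CKO. The summed level of the list was 1497, 2639 and 4722 CPM in Sham-Fabp4fl_fl mice 1, 2 and 3, and between 204 and 442 CPM in the other 9 mice. Ttr alone made up most of the sum in each Sham-Fabp4fl_fl mouse. In bulk tissue, fewer cells of a type and less RNA per cell cannot be told apart, and how much ventricular tissue each piece held was not tested. The count was 8 to 11 with any 1 library left out, and 8 without Sham-Fabp4fl_fl mouse 3, which had the highest choroid sum.

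Within the list, Aqp1, the water channel of the apical choroid membrane, had 5.35, 10.7 and 17.0 CPM in Sham-Fabp4fl_fl and 0.277, 0.313 and 0.276 CPM in Sham-Fabp4CKO. After ICH the groups overlapped, at 4.08, 2.74 and 0.903 CPM in Fabp4fl_fl and 3.88, 2.08 and 9.13 CPM in Fabp4CKO. Its difference of differences was 6.20 (adjusted p = 0.0755). Aqp1 was lowest in the Sham-Fabp4CKO mice, and 5 of the 6 ICH mice were also below every Sham-Fabp4fl_fl mouse. Aqp1 is also expressed by other cells of injured tissue. Sostdc1, a secreted BMP and Wnt antagonist, had a value of 4.36 (adjusted p = 0.185). Mfrp, a frizzled-related membrane protein outside the list, had 12.5, 21.6 and 37.3 CPM in Sham-Fabp4fl_fl and at most 0.811 CPM in any other mouse, with a value of 5.29 (adjusted p = 0.12).

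The choroid plexus list held 8 of the 120 sham-carried genes called higher, so most lay outside it, and some of these had few reads. Lamp3 and Slc34a2, known as a lysosomal membrane protein and a phosphate transporter of secretory epithelia, had 0 reads in all 3 Sham-Fabp4CKO mice. Sham-Fabp4fl_fl was at least 12.8-fold higher for Lamp3 and at least 32.3-fold higher for Slc34a2, computed against a floor of 3 reads over the group. In the lower direction there were 7 sham-carried genes, led by Apob, AKAP17A, Mbd6, Me2 and Kcnh6. Apob, the protein of low-density lipoprotein, had 0 reads in the Sham-Fabp4fl_fl mice and 22 over the Sham-Fabp4CKO mice, which is at least 6.51-fold higher, although the mice of these groups overlapped. Me2, a mitochondrial malic enzyme, had 26.7, 28.6 and 36.3 CPM in Sham-Fabp4fl_fl and 49.5, 55.3 and 38.3 CPM in Sham-Fabp4CKO, with a value of -0.74 (adjusted p = 0.425). Kcnh6, a potassium channel, was at 0.964, 1.10 and 1.08 CPM against 2.08, 2.10 and 2.25 CPM in the same groups (adjusted p = 0.435 for the difference of differences).

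Fibroblasts of the meninges and vessel walls stood between the classes. Of 12 markers tested, 6 were called higher, 2 in each class, with a median of 1.75, beside -1.08 in sham and 0.26 after ICH. The count was 4 to 8 with any 1 library left out and 2 without Sham-Fabp4fl_fl mice 1 and 2. Igf2, a growth factor made by meninges and choroid plexus, had 78.2, 94.3 and 128 CPM in Sham-Fabp4fl_fl and 27.6, 24.9 and 30.8 CPM in Sham-Fabp4CKO. After ICH it was at 71.7, 41.6 and 43.3 CPM in Fabp4fl_fl and 83.5, 29.1 and 181 CPM in Fabp4CKO, so only the sham groups separated. The value was 2.76 (adjusted p = 0.274) and was sham-carried. Col1a1, the main fibrillar collagen chain, was ICH-carried at 4.04 (adjusted p = 0.367), with 77.1, 41.4 and 15.5 CPM in ICH-Fabp4fl_fl and 333, 15.9 and 672 CPM in ICH-Fabp4CKO. ICH-Fabp4CKO mouse 2 lay within the Fabp4fl_fl range here. Of 15 collagens 7 were called higher, with a median of 1.92. That count was 2 without Sham-Fabp4fl_fl mice 1 and 2, 3 without ICH-Fabp4CKO mouse 3 and 10 without ICH-Fabp4CKO mouse 2. Islr, a secreted leucine-rich repeat protein of mesenchymal cells, was shared at 2.45 (adjusted p = 0.14) and separated the genotypes in sham and after ICH, in opposite directions.

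**Figure D2:**
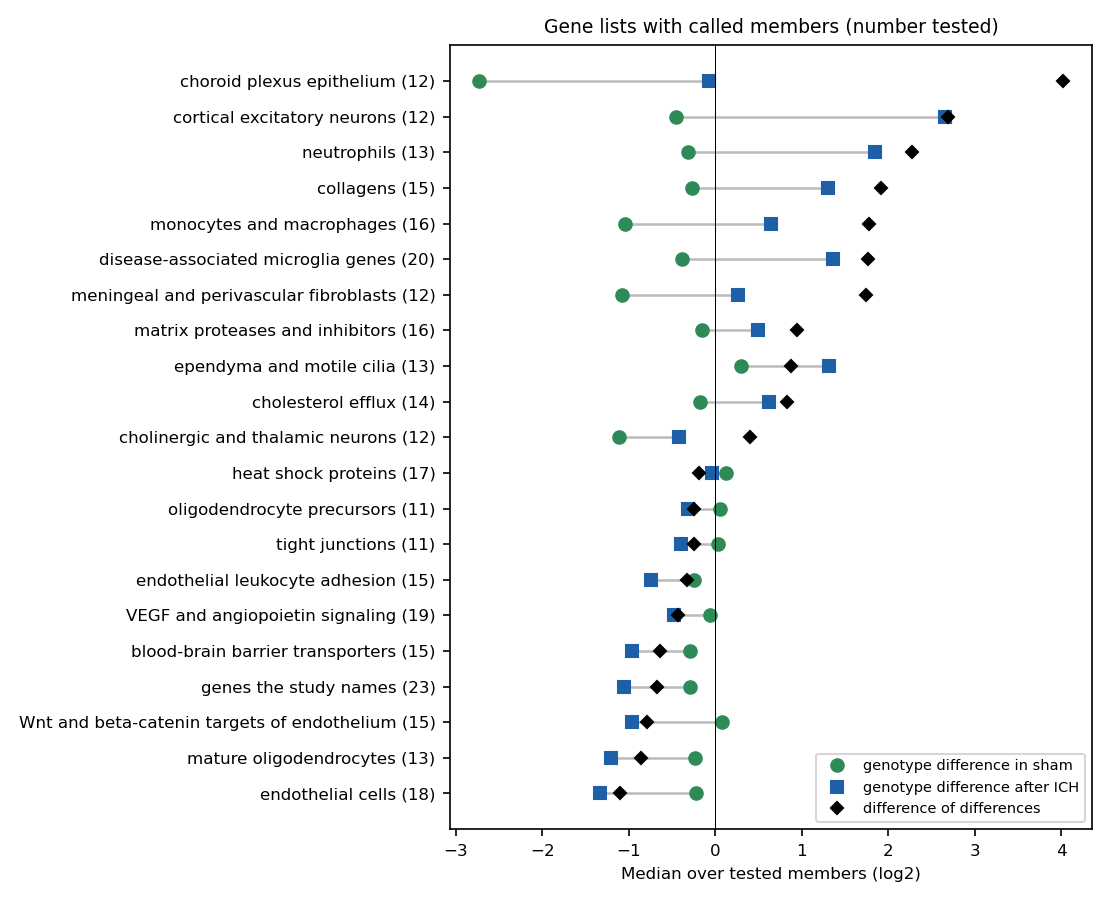
Median log2 value over the tested members of the 21 gene lists described, with the number tested in parentheses. Circles show the genotype difference in sham, squares the genotype difference after ICH and diamonds the difference of differences. Choroid plexus markers are displaced in sham (-2.73) and near 0 after ICH (-0.07), while endothelial markers are near 0 in sham (-0.22) and displaced after ICH (-1.33). The median of a difference need not equal the difference of medians.

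The lower direction was led by capillary genes. Of 18 endothelial markers 14 were called lower, against 3.29% of all genes, and all 14 were ICH-carried. The list median was -1.10 for the difference of differences, -0.22 for the genotype difference in sham and -1.33 after ICH. At an adjusted p below 0.05, all 18 markers rose after ICH in Fabp4fl_fl and 9 rose in Fabp4CKO. The median change over the list in Fabp4CKO was 0.80. Between the ICH groups 12 of the 18 were lower in Fabp4CKO at an adjusted p below 0.05. Their summed level was 2164, 1422 and 964 CPM in ICH-Fabp4fl_fl mice 1, 2 and 3 and 747, 525 and 645 CPM in ICH-Fabp4CKO, against 374 to 435 CPM in the 6 sham mice. The groups did not overlap after ICH. The count was 9 and the median -0.70 without ICH-Fabp4fl_fl mouse 1, which had the highest endothelial sum and the highest mitochondrial share.

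Cldn5, the principal tight junction claudin of brain capillaries, had 206, 119 and 88.4 CPM in ICH-Fabp4fl_fl and 32.1, 27.3 and 29.3 CPM in ICH-Fabp4CKO. The sham mice overlapped, at 26.1, 22.02 and 25.3 CPM in Fabp4fl_fl and 30.8, 28.1 and 24.6 CPM in Fabp4CKO. Cldn5 in ICH-Fabp4CKO thus stayed near the sham values. It rose by 2.49 on the log2 scale in Fabp4fl_fl (adjusted p = 0.000217) and changed by 0.09 in Fabp4CKO (adjusted p = 0.792), a difference of differences of -2.41 (SE 0.36, adjusted p = 0.0687). That value passed the adjusted threshold in 3 of the 12 fits with a library left out and by DESeq2. Sox18, a transcription factor of endothelial differentiation, followed the same order with 55.7, 32.5 and 20.1 CPM against 12.3, 10.4 and 12.2 CPM after ICH, and a value of -1.99 (adjusted p = 0.233). Robo4 and Tie1, receptors that stabilize vessels, had values of -1.33 and -1.44 (adjusted p = 0.307 and 0.327).

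Targets of Wnt and beta-catenin signaling in endothelium were lower in 7 of 15 cases, 6 of them ICH-carried, with a median of -0.79. Foxq1, a forkhead factor enriched in brain endothelium, had 18.4, 13.6 and 11.6 CPM in ICH-Fabp4fl_fl and 4.98, 4.74 and 5.14 CPM in ICH-Fabp4CKO. Its sham levels were 3.90, 3.40 and 3.20 CPM in Fabp4fl_fl and 4.67, 4.16 and 4.18 CPM in Fabp4CKO, so the order of the genotypes was opposite in sham, by a small margin. The difference of differences was -1.86 (SE 0.28, adjusted p = 0.0687). Apcdd1, a membrane inhibitor of Wnt signaling that the pathway induces, had 234, 175 and 107 CPM against 50.7, 50.4 and 65.9 CPM after ICH (-1.63, adjusted p = 0.186). Foxf2, which acts in pericytes and endothelium, had -1.43 (adjusted p = 0.291). Sox7, Tcf7, Nkd1 and Sox18, also counted among the endothelial markers, completed the 7. The endothelial, Wnt, adhesion, tight junction and VEGF lists share genes, such as Sox18, Esam, Icam2, Kdr and Cldn5. Their counts are therefore not independent of one another.

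Blood-brain barrier transporters were lower in 5 of 15 cases, all ICH-carried, with a median of -0.64, and 6 of the 15 were lower in ICH-Fabp4CKO than in ICH-Fabp4fl_fl at an adjusted p below 0.05. The count of 5 was 3 without Sham-Fabp4fl_fl mouse 3. Mfsd2a, which carries lysophospholipids into the brain and restrains transcytosis, had 53.9, 51.9 and 38.1 CPM in ICH-Fabp4fl_fl and 25.0, 24.4 and 18.3 CPM in ICH-Fabp4CKO, with sham levels from 20.1 to 24.0 CPM. Its value was -1.11 (adjusted p = 0.18). Abcb1a, the efflux pump P-glycoprotein, had 114, 74.2 and 60.8 CPM against 31.6, 36.7 and 48.01 CPM after ICH (-0.95, adjusted p = 0.39). Slco1c1, a thyroxine transporter, and Slc7a5, a carrier of large neutral amino acids, had -0.95 and -0.68 (adjusted p = 0.392 and 0.39). The fifth was Slc2a1, the glucose transporter of the barrier, at -1.01 (adjusted p = 0.459).

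The promoters of genes that were lower together are shown because they are the stretches on which shared regulators would act, with the TCF/LEF core CTTTGA (or its reverse complement TCAAAG) in capitals. Each run is the 250 bases before the annotated start in RefSeq on GRCm38.p6, written along the strand of the gene, at chr16:18776597-18776846 (+) for Cldn5, chr4:122961189-122961438 (-) for Mfsd2a and chr5:8566841-8567090 (+) for Abcb1a.
Cldn5: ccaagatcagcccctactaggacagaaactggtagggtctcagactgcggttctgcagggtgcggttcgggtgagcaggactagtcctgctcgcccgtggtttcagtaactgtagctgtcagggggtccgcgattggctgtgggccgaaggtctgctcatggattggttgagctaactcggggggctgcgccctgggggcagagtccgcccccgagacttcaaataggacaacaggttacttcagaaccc
Mfsd2a: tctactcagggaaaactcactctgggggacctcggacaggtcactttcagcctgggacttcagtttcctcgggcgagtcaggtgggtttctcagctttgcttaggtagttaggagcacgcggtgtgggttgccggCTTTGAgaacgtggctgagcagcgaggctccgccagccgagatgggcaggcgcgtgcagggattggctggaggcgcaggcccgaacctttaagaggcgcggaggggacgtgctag
Abcb1a: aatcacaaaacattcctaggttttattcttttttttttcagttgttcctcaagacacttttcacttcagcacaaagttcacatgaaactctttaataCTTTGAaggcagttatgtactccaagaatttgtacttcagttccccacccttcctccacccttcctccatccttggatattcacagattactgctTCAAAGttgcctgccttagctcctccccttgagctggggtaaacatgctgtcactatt
The motif began 115 bases before the start of Mfsd2a, and 153 and 58 bases before that of Abcb1a, and was absent from the Cldn5 window. On either strand it was held by 13.8% of 32841 promoters of this length. In the counts that follow, a gene is counted when any of its promoters held the motif, unlike that share, which is per promoter. Among the 5 transporters called lower, 4 had a promoter in the table and 2 of these held it. The same was true of 2 of 9 for the 14 endothelial markers and 0 of 3 for the 7 Wnt targets. The ETS core CCGGAAG (reverse complement CTTCCGG), held by 6.91% of promoters, was found in 1 of those 3 and in none of the 4 or the 9. Of the 10 genes with the smallest p in the lower direction, 6 had a promoter in the table, and 0 of these held either motif. These matches describe letters in a short window and not binding.

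Tight junction genes were split. Of 11 tested, 4 were lower, among them Cldn5, Lsr (-1.38) and Ocln (-0.95), and 2 were higher, Cldn1 and Cgn (1.80). Lsr encodes the angulin of tricellular junctions, and Ocln encodes occludin. Cldn1, a claudin of epithelia and choroid plexus, was the sham-carried exception at 1.89 (adjusted p = 0.27), with 4.39, 8.22 and 8.99 CPM in Sham-Fabp4fl_fl and 2.36, 3.22 and 1.70 CPM in Sham-Fabp4CKO. Endothelial molecules for leukocyte adhesion were lower in 7 of 15 cases and higher in 1, with a median of -0.33. Esam, an adhesion molecule of endothelial tight junctions, had 111, 59.9 and 43.8 CPM in ICH-Fabp4fl_fl and 32.8, 21.8 and 26.4 CPM in ICH-Fabp4CKO (-1.35, adjusted p = 0.329). Icam2, a constitutive ligand of leukocyte integrins, had 18.8, 15.4 and 7.65 CPM against 5.11, 3.09 and 4.87 CPM (-1.43, adjusted p = 0.408). Vcam1, the inducible ligand, had a value of -0.33 (adjusted p = 0.724) and rose in each genotype. The number of adhesion genes called lower was 2 without ICH-Fabp4fl_fl mouse 1, 3 without Sham-Fabp4fl_fl mouse 3, and 4 without any 1 of Sham-Fabp4fl_fl mouse 1, Sham-Fabp4CKO mouse 1, Sham-Fabp4CKO mouse 3, ICH-Fabp4fl_fl mouse 2 or ICH-Fabp4CKO mouse 3.

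In VEGF and angiopoietin signaling 6 of 19 genes were lower and 1 higher, all 7 ICH-carried. Apln, the ligand apelin made by sprouting vessels, had 124, 126 and 90.5 CPM in ICH-Fabp4fl_fl and 64.0, 48.5 and 49.7 CPM in ICH-Fabp4CKO (-1.26, adjusted p = 0.185). Among the receptors, Flt4 and Kdr had -1.42 and -1.28 (adjusted p = 0.307 and 0.33). Adgrl4, an adhesion receptor of endothelium that was among the 10 genes with the smallest p in this direction, had 187, 175 and 104 CPM in ICH-Fabp4fl_fl and 46.5, 35.5 and 52.8 CPM in ICH-Fabp4CKO. It rose in each genotype, by 2.72 and by 1.07 on the log2 scale (adjusted p = 0.000109 and 0.00334), so here the response was smaller in Fabp4CKO and not missing. Tmem100, a vascular membrane protein of BMP signaling, had -1.22 (adjusted p = 0.12).

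**Figure D3:**
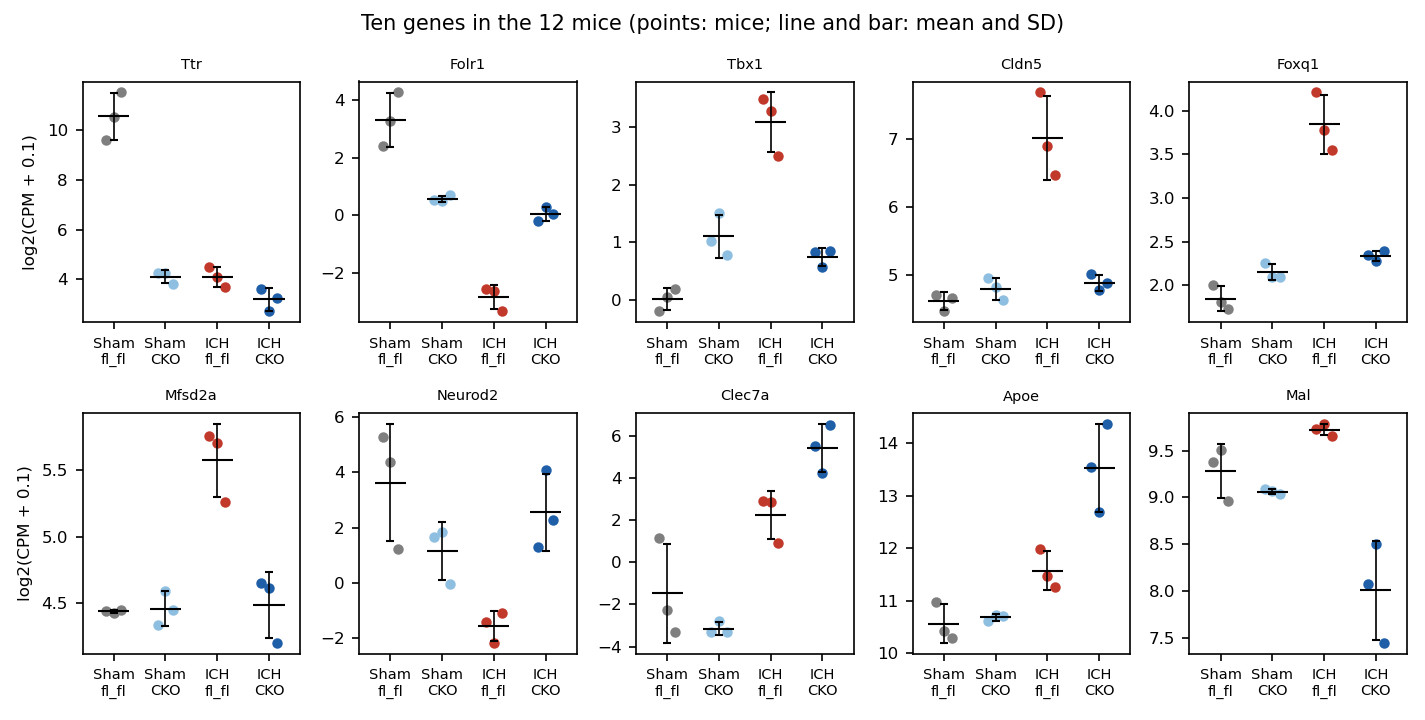
Levels of 10 genes, as log2(CPM + 0.1), in the 3 mice of each group, with the mean as a line and the SD as a bar. Ttr and Folr1 separate the sham groups, Tbx1, Cldn5, Foxq1 and Mfsd2a are high only in ICH-Fabp4fl_fl, and Clec7a and Apoe are highest in ICH-Fabp4CKO, where Mal is lowest.

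The other genes among the 10 with the smallest p in the lower direction were of mixed function, all ICH-carried. Metrn, a neurotrophic factor of glia, had 165, 132 and 105 CPM in ICH-Fabp4fl_fl and 52.8, 54.7 and 46.4 CPM in ICH-Fabp4CKO, with sham levels from 40.6 to 49.7 CPM (-1.44, SE 0.23, adjusted p = 0.0755). H2ax, the histone variant phosphorylated at DNA breaks, had 60.0, 49.8 and 47.2 CPM against 28.1, 28.1 and 28.3 CPM after ICH (-1.32, adjusted p = 0.0755). Timp4, an inhibitor of metalloproteinases, had 85.9, 81.1 and 71.3 CPM against 26.7, 27.3 and 21.3 CPM (-1.62, adjusted p = 0.0849). The ICH groups of each of these 3 did not overlap. Timp4 also rose in Fabp4fl_fl (0.99, adjusted p = 0.00222) and fell in Fabp4CKO (-0.63, adjusted p = 0.0204). Epx, a peroxidase of eosinophils, had 2.18, 3.99 and 3.99 CPM against 0.259, 0.533 and 0.164 CPM (-3.94, adjusted p = 0.0865), and 1700020L24Rik, a gene with no function named here, had -2.57 (adjusted p = 0.12).

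Oligodendrocyte genes were lower as well. Of 13 markers of mature oligodendrocytes, which make myelin, 7 were called lower and 0 higher, all 7 ICH-carried, with a median of -0.86. Their summed level was 30634, 26622 and 20246 CPM in ICH-Fabp4fl_fl and 11949, 12452 and 7728 CPM in ICH-Fabp4CKO. The sham sums were 15513, 16353 and 9364 CPM in Fabp4fl_fl and 11181 to 12062 CPM in Fabp4CKO. Sham-Fabp4fl_fl mice 1 and 2 were thus high in this list as well. The count of 7 fell to 4 without any 1 of Sham-Fabp4fl_fl mouse 3, Sham-Fabp4CKO mouse 1, Sham-Fabp4CKO mouse 2, ICH-Fabp4fl_fl mouse 1, ICH-Fabp4fl_fl mouse 2 or ICH-Fabp4CKO mouse 3, and was 11 with mouse 3, the lowest of the sham mice, as the only Sham-Fabp4fl_fl mouse. The median stayed between -0.99 and -0.62 with any 1 library left out. Mal, a proteolipid of compact myelin, had 848, 881 and 810 CPM in ICH-Fabp4fl_fl and 269, 362 and 174 CPM in ICH-Fabp4CKO. It fell in Fabp4CKO (-0.99, adjusted p = 0.00838) and had 0.43 in Fabp4fl_fl (adjusted p = 0.155), a difference of differences of -1.42 (adjusted p = 0.25). Cldn11, the claudin of myelin, rose in Fabp4fl_fl (1.56, adjusted p = 0.000745) and had 0.25 in Fabp4CKO (adjusted p = 0.384). Of 11 markers of oligodendrocyte precursors 3 were lower, the transcription factors Olig1 (-1.04), Olig2 (-0.69) and Sox10 (-0.68), which mature cells also express.

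Neuronal and ciliary genes were among those called higher. Of 12 markers of cortical excitatory neurons 8 were called higher, with a median of 2.69 that went with 2.65 after ICH and -0.46 in sham. Of the 8, 3 were ICH-carried, 4 shared and 1 sham-carried. Of the 12, 9 fell after ICH in Fabp4fl_fl and 2 in Fabp4CKO at an adjusted p below 0.05. Neurod2, a neurogenic transcription factor of the forebrain, had 0.281, 0.125 and 0.372 CPM against 2.39, 16.8 and 4.70 CPM after ICH. Its sham levels were 38.8, 20.7 and 2.27 CPM in Fabp4fl_fl and 3.10, 3.49 and 0.874 CPM in Fabp4CKO, so the sham groups overlapped and varied widely (7.94, SE 1.54, adjusted p = 0.141). These are genes of cortex, which lies outside the striatum. Striatal projection neuron markers gave 0 called higher and 1 called lower of 14, with a median of -0.81, and their sums ranged from 2212 to 7347 CPM in ICH-Fabp4fl_fl and from 2463 to 5657 CPM in ICH-Fabp4CKO. How much cortex each piece of tissue held was not tested. Nptx1, a secreted pentraxin of excitatory synapses, was among the 10 genes with the smallest p, with 12.3, 14.3 and 15.8 CPM in ICH-Fabp4fl_fl and 55.7, 122 and 55.7 CPM in ICH-Fabp4CKO (3.24, adjusted p = 0.12).

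Of the other genes with the smallest p in this direction, several were nearly silent in the ICH-Fabp4fl_fl mice and present in all other groups. Col6a5, a microfibrillar collagen chain, had 0.141, 0.0624 and 0.106 CPM in ICH-Fabp4fl_fl and 3.23, 3.94 and 7.65 CPM in ICH-Fabp4CKO, with sham levels from 1.45 to 4.09 CPM in the 6 sham mice (5.20, SE 0.76, adjusted p = 0.0687). Spata18, which acts in mitochondrial quality control, had 2 reads over the ICH-Fabp4fl_fl mice and 145 over the ICH-Fabp4CKO mice, a ratio of 67.7 (95% exact interval 18.4 to 565, counting error only), with sham levels from 2.36 to 5.70 CPM. Gm21149, a predicted gene, had 0 reads in ICH-Fabp4fl_fl and 94 in ICH-Fabp4CKO, at least 29.3-fold higher, with sham levels from 0.530 to 1.10 CPM. Each of these 3 had sham groups that overlapped. Kif19a, a kinesin that limits the length of motile cilia, differed by less but with little spread, at 3.03, 2.87 and 2.87 CPM in ICH-Fabp4fl_fl and 14.2, 12.1 and 10.9 CPM in ICH-Fabp4CKO (1.52, SE 0.25, adjusted p = 0.0865). Pkp2, a plakophilin of desmosomes, was shared (2.42, adjusted p = 0.12).

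Serpinf2, the plasmin inhibitor alpha-2-antiplasmin, was shared, and rose in Fabp4CKO (adjusted p = 0.000118) with a change of 1.10 in Fabp4fl_fl (adjusted p = 0.0882). It had 0.633, 0.499 and 0.638 CPM in ICH-Fabp4fl_fl and 3.88, 2.61 and 2.24 CPM in ICH-Fabp4CKO. The Sham-Fabp4CKO mice held 1 read in all and the Sham-Fabp4fl_fl mice 16. Its value of 5.96 (adjusted p = 0.0687) depends on that read for its size.

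Markers of ependyma and motile cilia, the lining of the ventricles, were called higher in 5 and lower in 1 of 13 cases, all 6 ICH-carried. The number called higher was 1 without Sham-Fabp4fl_fl mouse 3 or Sham-Fabp4CKO mouse 1, 2 without Sham-Fabp4CKO mouse 2, ICH-Fabp4fl_fl mouse 2, ICH-Fabp4fl_fl mouse 3 or ICH-Fabp4CKO mouse 1, 3 without Sham-Fabp4fl_fl mouse 2 or Sham-Fabp4CKO mouse 3, and 8 without ICH-Fabp4fl_fl mouse 1. Tekt1, a tektin of the axoneme, had 1.62, 1.75 and 1.38 CPM in ICH-Fabp4fl_fl and 4.20, 4.37 and 3.28 CPM in ICH-Fabp4CKO (1.26, adjusted p = 0.312). Hydin, a protein of the ciliary central pair, had 1.48, 0.374 and 0.0531 CPM against 3.49, 4.58 and 4.16 CPM (2.11, adjusted p = 0.432). Rarres2, the chemoattractant chemerin, was the gene called lower (-1.18, adjusted p = 0.304). Cholinergic and thalamic markers were divided, with 7 values above 0 and 5 below. Of the 12 markers, 5 were called lower and 1 higher. The number called lower was 3 without any 1 of Sham-Fabp4fl_fl mouse 1, Sham-Fabp4fl_fl mouse 2, Sham-Fabp4CKO mouse 1, ICH-Fabp4fl_fl mouse 3 or ICH-Fabp4CKO mouse 3. The vesicular acetylcholine transporter Slc18a3 had 11.6, 9.29 and 13.1 CPM in ICH-Fabp4fl_fl and 4.79, 5.01 and 1.53 CPM in ICH-Fabp4CKO (-2.47, adjusted p = 0.185). It fell in Fabp4CKO (-1.95, adjusted p = 0.00272) and had a change of 0.53 in Fabp4fl_fl (adjusted p = 0.241). The factors Gbx1 and Lhx8 of basal forebrain neurons had -2.49 and -2.11 (adjusted p = 0.27 and 0.307), and their sham levels were lowest in Sham-Fabp4fl_fl mice 1 and 2. Prkcd, a kinase of thalamic neurons, was the gene called higher, at 2.30, with 424, 262 and 58.2 CPM in Sham-Fabp4fl_fl and 46.3 to 96.0 CPM in Sham-Fabp4CKO. The list median was 0.40 and changed sign without any of 3 single libraries, and was -1.02 without Sham-Fabp4fl_fl mice 1 and 2.

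**Figure D4:**
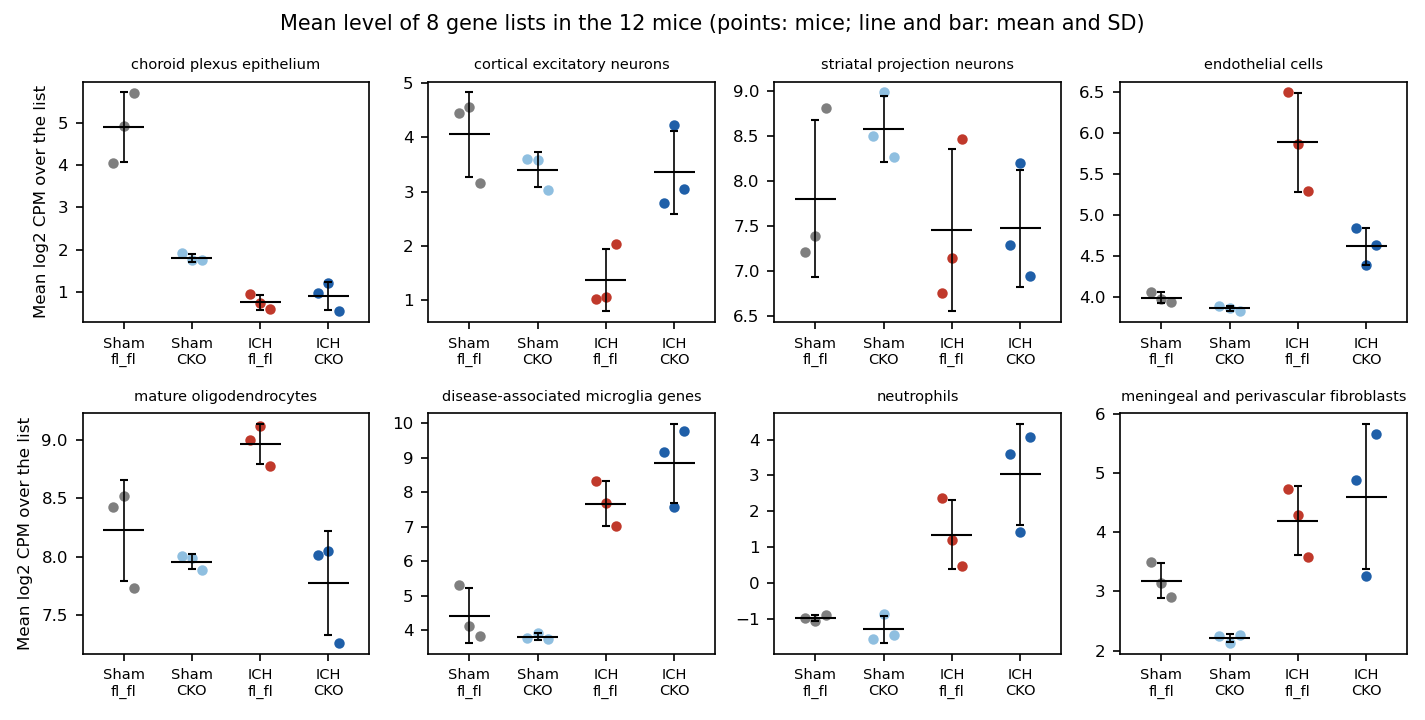
Mean log2 CPM over the tested members of 8 gene lists in the 3 mice of each group, with the mean as a line and the SD as a bar. Choroid plexus markers stand high only in Sham-Fabp4fl_fl, endothelial and oligodendrocyte markers separate the ICH groups, and for microglial, neutrophil and fibroblast lists ICH-Fabp4CKO mouse 2 lies below the other 2 mice of its group.

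Microglial, myeloid and lipid genes were also called higher. The list of disease-associated microglia genes, a state of phagocytic and lipid-handling microglia, had 10 of 20 members called higher and 0 lower, of which 6 were ICH-carried, 3 shared and 1 sham-carried. The median was 1.77, with 1.36 after ICH and -0.39 in sham. After ICH 19 rose in Fabp4fl_fl and all 20 in Fabp4CKO at an adjusted p below 0.05. For these 19 the direction was the same in each genotype. None of the 20 passed the adjusted threshold for the difference of differences (0 of 20), and 2 of 20 had a value below 0. The summed level was 25488, 15492 and 10746 CPM in ICH-Fabp4fl_fl and 53639, 17440 and 93588 CPM in ICH-Fabp4CKO. ICH-Fabp4CKO mouse 2 lay within the Fabp4fl_fl range, and without it 16 of 20 were called. The count was 15 without ICH-Fabp4fl_fl mouse 1, 6 without Sham-Fabp4fl_fl mouse 1 and 2 without Sham-Fabp4fl_fl mice 1 and 2.

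Apoe, the main lipid carrier of the brain, had 4047, 2836 and 2460 CPM in ICH-Fabp4fl_fl and 11908, 6617 and 21094 CPM in ICH-Fabp4CKO. The sham mice had 1246 to 2013 CPM, and the ICH groups did not overlap (2.00, SE 0.54, adjusted p = 0.293). Clec7a, a receptor for fungal glucans that marks activated microglia, had 7.32, 7.23 and 1.81 CPM against 45.0, 18.5 and 90.5 CPM after ICH. Sham-Fabp4fl_fl mouse 1 had 2.12 CPM and the other 5 sham mice at most 0.110 CPM, and the Sham-Fabp4CKO mice held 1 read in all, so the fitted 8.38 (adjusted p = 0.268) has no firm size. Gpnmb, a glycoprotein of phagocytes, showed the same mouse standing out, with 40.0 CPM in Sham-Fabp4fl_fl mouse 1 and 1.48 to 2.79 CPM in the other 5 sham mice. Its ICH levels were 609, 558 and 271 CPM in Fabp4fl_fl and 3657, 588 and 7757 CPM in Fabp4CKO, which overlapped. Itgax, an integrin of dendritic cells and activated microglia, had 4.84 (adjusted p = 0.304).

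Genes of cholesterol efflux were higher in 5 of 14 cases and lower in 1, all ICH-carried, with a median of 0.83. The number called higher was 3 without ICH-Fabp4CKO mouse 3, 8 without ICH-Fabp4CKO mouse 2 and 2 without Sham-Fabp4fl_fl mice 1 and 2, and the median ran from 0.45 to 1.09 with 1 library left out. Abca1, the pump that loads cholesterol onto apolipoproteins, had 272, 235 and 179 CPM in ICH-Fabp4fl_fl and 879, 309 and 1742 CPM in ICH-Fabp4CKO (2.34, adjusted p = 0.304). Mylip, a ubiquitin ligase that degrades the LDL receptor, had 33.0, 26.1 and 30.2 CPM against 78.3, 33.3 and 156 CPM (1.79, adjusted p = 0.353). For each of the 2 the ICH groups did not overlap, though ICH-Fabp4CKO mouse 2 stood just above the Fabp4fl_fl mice. Apod, a glial apolipoprotein, was the gene called lower, with 7744, 5344 and 2128 CPM against 1375, 943 and 1120 CPM (-1.67, adjusted p = 0.368).

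Monocytes and macrophages, and neutrophils, were described by 2 lists. In whole tissue, blood-derived and resident macrophages were not told apart. A further list, of T and NK cells, had 1 of 12 called higher and 1 lower, with a median of -0.52 and 8 values below 0. Of 16 monocyte and macrophage markers 4 were called higher and 0 lower, 2 shared and 2 sham-carried, with a median of 1.78, beside -1.04 in sham and 0.64 after ICH. The count was 1 without Sham-Fabp4fl_fl mouse 1 or Sham-Fabp4CKO mouse 3, 2 without Sham-Fabp4CKO mouse 1 or 2, 7 without ICH-Fabp4fl_fl mouse 1, 10 without ICH-Fabp4CKO mouse 2 and 0 without Sham-Fabp4fl_fl mice 1 and 2 by edgeR. Lyz2, lysozyme of myeloid cells, had 1278, 1262 and 641 CPM in ICH-Fabp4fl_fl and 4381, 908 and 7915 CPM in ICH-Fabp4CKO, which overlapped (3.32, adjusted p = 0.331). Ccr2, the monocyte chemokine receptor, overlapped after ICH at 24.7, 33.7 and 9.78 CPM against 47.5, 12.5 and 29.1 CPM. Its value of 3.03 (adjusted p = 0.412) was sham-carried, and the sham mice had at most 0.675 CPM. Chil3, F10 and Ly6c2 of this list had 0, 1 and 3 reads over the Sham-Fabp4CKO mice, so their values have no firm size. Neutrophil markers were higher in 4 of 13 cases, with a median of 2.28 and a positive value for all 13. Csf3r, the receptor for granulocyte colony-stimulating factor, separated the ICH groups at 45.0, 31.4 and 35.8 CPM against 94.6, 55.5 and 96.1 CPM (1.45, adjusted p = 0.344). S100a9, a calcium-binding alarmin of neutrophils, had 9.71, 2.87 and 1.75 CPM against 50.8, 6.18 and 49.4 CPM, which overlapped (3.69, adjusted p = 0.42). The count was 7 without ICH-Fabp4fl_fl mouse 1 and 2 without Sham-Fabp4fl_fl mice 1 and 2. Homeostatic microglia markers had a median of -0.02, with 3 of 13 called higher.

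The last lists were small or divided. Heat shock genes were lower in 5 of 17 cases with a median of -0.18, led by the small chaperones Cryab (-1.17, adjusted p = 0.327) and Hspb8 (-0.88, adjusted p = 0.399). The count of 5 was 1 without ICH-Fabp4fl_fl mouse 1, 2 without Sham-Fabp4fl_fl mouse 2, ICH-Fabp4fl_fl mouse 2 or ICH-Fabp4CKO mouse 3, 3 without Sham-Fabp4fl_fl mouse 1, Sham-Fabp4CKO mouse 1 or Sham-Fabp4CKO mouse 2, and 1 without Sham-Fabp4fl_fl mice 1 and 2. Cryab had 417, 390 and 281 CPM in ICH-Fabp4fl_fl and 194, 169 and 93.2 CPM in ICH-Fabp4CKO. Among 16 matrix proteases and inhibitors 2 were higher and 2 lower, with 4 higher without ICH-Fabp4fl_fl mouse 1 and 6 without ICH-Fabp4CKO mouse 2. The number lower was 1 without any 1 of Sham-Fabp4fl_fl mouse 1, Sham-Fabp4fl_fl mouse 2, Sham-Fabp4CKO mouse 3, ICH-Fabp4fl_fl mouse 1, ICH-Fabp4fl_fl mouse 2 or ICH-Fabp4CKO mouse 2. Timp2 had 299.9 to 367 CPM in ICH-Fabp4fl_fl and 545 to 984 CPM in ICH-Fabp4CKO (1.01, adjusted p = 0.312), the reverse of Timp4. Adamts5, an aggrecanase, had -1.09 (adjusted p = 0.444) and the gelatinase Mmp2 had 1.82 (adjusted p = 0.367).

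Many of the 23 genes that the study discusses were chosen on these samples, so their direction is not independent evidence, while others, such as S100a9 and Bach1, came to the study by other routes. Of them 8 were called lower, 1 higher and 14 neither, with a median of -0.67, and all 9 were ICH-carried. The number called lower was 4 without any 1 of Sham-Fabp4fl_fl mouse 3, Sham-Fabp4CKO mouse 1 or ICH-Fabp4fl_fl mouse 1, and 5 without Sham-Fabp4fl_fl mouse 2, Sham-Fabp4CKO mouse 3, ICH-Fabp4CKO mouse 2 or ICH-Fabp4CKO mouse 3. Those called lower were Chst2, Esam, Fabp7, Apod, Icam2, Slc2a1, Pecam1 and S100a10, and S100a9 was the gene called higher. Chst2, a sulfotransferase that makes selectin ligands, had 223, 235 and 203 CPM in ICH-Fabp4fl_fl and 119, 152 and 112 CPM in ICH-Fabp4CKO (-0.83, adjusted p = 0.264). Fabp7, the fatty acid binding protein of astrocytes and their precursors, had 74.2, 70.4 and 73.8 CPM against 21.0, 33.1 and 34.1 CPM (-1.05, adjusted p = 0.348). Tnf, a cytokine of microglia and macrophages, overlapped after ICH at 4.57, 3.68 and 1.17 CPM against 10.02, 1.49 and 6.94 CPM, with a value of 2.92 (adjusted p = 0.592). The Sham-Fabp4fl_fl mice held 8 Tnf reads in all and the Sham-Fabp4CKO mice 2, so this value has no firm size. Tmem119, whose gene drives the Cre, had 0.16 (adjusted p = 0.924), and the acute-phase gene Lcn2 had 0.60 (adjusted p = 0.919).

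Of the 61 lists examined, 40 fell outside this description, and 12 of these had 0 members called. Among the 12 were MHC class I presentation, NF-kB subunits and feedback inhibitors, interferon-inducible GTPases, heme and iron handling, synaptic vesicle genes, glutamate and GABA receptors, glycolysis enzymes and cytosolic ribosomal proteins. Their responses to ICH were large in many cases. For example, 28 of 28 ribosomal protein genes were higher in Fabp4fl_fl and 25 in Fabp4CKO at an adjusted p below 0.05. The median difference of differences of these ribosomal genes was -0.09. Over the 12 lists such medians ran from -0.46 (mitochondria-encoded respiratory chain) to 1.16 (erythroid cells). For MHC class I presentation the median was 0.91, with 16 of 17 members above 0, beside -0.65 in sham and -0.02 after ICH. Inflammatory cytokines and mediators had 3 of 17 called higher with a median of 1.37, and chemokines 3 of 17 with a median of 1.73. In the pathways annotated in the deposited table, 245 of 312 with at least 15 tested genes had a median above 0. Glycosaminoglycan degradation was highest at 1.36, with 6 of 16 called higher, among them the lysosomal enzymes Naglu (2.06), Glb1 (1.60) and Hexa (1.60), and the heparanase Hpse (3.41). Malaria (1.07), Staphylococcus aureus infection (1.01), Graft-versus-host disease (1.00) and Allograft rejection (0.95) followed. The lowest was Oxidative phosphorylation at -0.27 over 122 genes, with 3 called lower and 1 higher, followed by Parkinson disease (-0.23), Cardiac muscle contraction (-0.23), Vitamin digestion and absorption (-0.23) and Glycine, serine and threonine metabolism (-0.22).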

How the data were processed

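Per the labels and the study's methods, poly(A) RNA from 12 mouse brain samples was sequenced, and the authors deposited 1 table of estimated counts per gene. The submitters' processing notes name Bowtie2 2.2.8, HISAT2, StringTie 1.3.1 and DESeq2. The counting step and the genome build are not given in the sources used here. The counts were rounded, filtered with filterByExpr (minimum count 10, total 15), scaled by TMM and fitted with edgeR 4.0.16 in R 4.3.3 as 4 groups, with quasi-likelihood tests and Benjamini-Hochberg adjustment over 15089 genes. Library totals ran from 15650813 to 22406216. Each p-value uses a dispersion per gene fitted over all 12 mice, 3 per group. A contrast of the ICH groups thus also draws on the spread among the sham mice. The 61 gene lists, and the rule for named genes (the 10 smallest p per direction with at least 1 CPM and 1.5-fold, the 5 smallest per direction of each class, and the 4 smallest of each list described), were chosen with earlier results of these data known. Lists were described where at least 3 members were called at 3 times the background share or more. No 2 replicates agreed within sampling noise (lowest chi-square per gene 7.22, within Sham-Fabp4CKO, and highest 324, within ICH-Fabp4CKO). Promoters came from RefSeq. Alternatives used RLE, no TMM, no mitochondrial genes, DESeq2 1.42.0, limma-voom 3.58.1, 2 other filters, a replicate block and left-out libraries. The test was run on simulated data, where the adjusted rule found 3% of 100 genes with a 2-fold difference and 56% of 100 with a 4-fold one. A small adjusted count therefore does not show that few genes differ. Some genes named by the rule are not reported here.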

Additional observations from a re-analysis of the deposited data

Results flagged for a closer look

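Ttr, Folr1 and Tbx1 are listed here because their ICH response differed between the genotypes by a direct test of that difference (adjusted p = 0.0278 for each). The difference of differences was 5.73 for Ttr, 7.33 for Folr1 and -3.66 for Tbx1 on the log2 scale. Ttr is carried by the sham groups, Tbx1 by the ICH groups, and Folr1 by both, with 2 reads over the ICH-Fabp4fl_fl mice. Ttr and Folr1 are themselves members of the choroid plexus list, in which 10 of 12 markers were called higher. The part of tissue sampling in this was not tested.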

How the results depend on the processing

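The adjusted count of 3 genes was 3 under RLE scaling, without TMM, without mitochondrial genes and without a filter, 266 by DESeq2, 1 by limma-voom and 0 to 371 with 1 library left out. It was 0 without any of 7 libraries, which had 1104 to 1431 genes at an unadjusted p below 0.05, and 371 without ICH-Fabp4CKO mouse 2. With a library left out, genes called higher numbered 552 to 1507 and lower 362 to 1107, genotype calls after ICH 23 to 1981 and in sham 4 to 16, response calls 4819 to 8573 in Fabp4fl_fl and 3880 to 9128 in Fabp4CKO, ICH-carried genes 581 to 1907 and sham-carried genes 95 to 348. Without Sham-Fabp4fl_fl mice 1 and 2, an alternative chosen after seeing the data that leaves 1 mouse in that group, genes called higher were 454, calls after ICH 60 and responses in Fabp4fl_fl 2690, and 45.5% of called genes were higher against 58.4%. Requiring a fold of 2 left 262 lower. For genotype calls after ICH, DESeq2 gave 1714 and the 6 ICH libraries alone 0 (1777 unadjusted). For sham, DESeq2 gave 76, limma-voom 2 and at least 10 counts in every library 3. Sham-carried genes were 81 by limma-voom, 61 with at least 10 counts in every library and 233 with a single limit of 1/2. The cause of these shifts was not tested.

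Replicate numbers did not pair the mice, since the mean correlation of same-numbered mice was -0.0124 and 3 of 12 libraries were closest to their own number. The replicate block gave 1 adjusted call (0 of the 3), 199 calls after ICH and 6 in sham.

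Of 2384 refits of 115 named genes 8 changed sign, and no gene that was called did so. Fabp4 had -0.63 by limma-voom. With a library left out, Lcn2 ranged from -0.30 to 3.67, Tmem119 from -0.19 to 0.44 and Tnfsf8 from -1.525 to 0.37. The cholinergic and thalamic median ranged from -1.23 to 1.29, and was -1.02 without Sham-Fabp4fl_fl mice 1 and 2. Library size limits genes with few reads, such as Folr1 and Clec7a, whose fitted sizes depend on single reads.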

Other observations

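Genes of cell division leaned lower without passing often. Of 20 mitosis genes 19 had a difference of differences below 0 and 2 were called lower, Aurkb (-2.64) and Kif20a (-1.66), with a list median of -0.95. All 20 rose after ICH in each genotype at an adjusted p below 0.05. Of 20 DNA replication genes 2 were called lower, Rrm2 (-1.75) and Cdc45 (-1.41), with a median of -0.41. Antioxidant and glutathione genes had 4 of 20 called lower, Gstm1 (-0.79), Prdx6 (-0.76), Gsta4 (-0.73) and Gclm (-0.71), and a median of -0.35. Genes of lipid uptake and lipid droplets had 3 of 21 called higher, Cd36 (4.15), Lpl (1.95) and Acsl4 (0.69), with a median of 0.28.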
